A study of Homo sapiens with 11 samples.

Results

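Described here are 9392 protein-coding genes, of 20327 such genes and 57773 genes of any type in the table. Their mean over 4 RNA-seq libraries was 5 FPKM or more, FPKM being a level scaled to the length of the transcript and to the size of the library. They were compared between HCC78 cells induced to express S34F mutant U2AF1 and HCC78 cells induced to express wild-type U2AF1, both under doxycycline. Of these genes, 166 were in lists of the epithelial-mesenchymal transition (EMT) and of interferon response, which were counted but are not described (38 of 92 EMT genes higher and 15 lower, 7 of 74 interferon genes higher and 23 lower). The genes nearest the minimum were C16orf70 and IL1RAP at 5 FPKM, inside it, and NAAA, TMEM144 and ZNF398, each at 4.995 FPKM, outside it.

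U2AF1 is the smaller subunit of the U2 auxiliary factor, which binds the end of an intron and helps to place the U2 snRNP before splicing. The S34F mutation lies in a zinc finger of the protein and shifts the bases it prefers next to the AG that ends the intron. It recurs in lung adenocarcinoma and in myeloid neoplasms, and it leaves most introns spliced as before.

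HCC78 is a lung adenocarcinoma line that itself carries U2AF1 S34F and an SLC34A2-ROS1 fusion, so every group holds both forms of the protein. Stable subclones were made with a lentiviral, tetracycline-inducible pTRIPz vector that encodes FLAG- and 6xHA-tagged U2AF1. The 4 libraries compared were 2 replicates with the mutant construct and doxycycline (S34F dox+) and 2 with the wild-type construct and doxycycline (WT dox+). The other 5 were 1 library of the S34F line without doxycycline (S34F dox-), 2 libraries of uninduced cells with the wild-type construct (WT dox-) and 2 of the parental line, which the labels place without doxycycline and a heading in the study's supplement with it. Each line is a derived subclone, so the construct and the subclone cannot be told apart in a comparison of the lines. Nothing says that replicates came from separate cultures, and p-values then measure only the spread between these libraries, which may be technical.

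By the labels, 62% and 65% of the U2AF1 transcripts in S34F dox+ carried the mutation, and 12% and 14% of those in WT dox+. The share was 28% in S34F dox-, 33% in both WT dox- libraries and 32% in both parental libraries. U2AF1 was at 164 and 223 FPKM in S34F dox+ and at 278 and 299 FPKM in WT dox+, with 103 to 115 FPKM in the 5 other libraries. The induced wild-type line thus had more U2AF1 mRNA than the induced mutant line, without overlap (log2 fold change -0.59, standard error 0.15, adjusted p = 0.531 from limma).

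Reads per gene were not analysed here. Depth relative to the first parental library, estimated from low values, was 0.702 and 0.603 in S34F dox+ and 1.09 and 0.865 in WT dox+, so the mutant values were the less precise. The median gene differed by 0.20 on the log2 scale between the S34F dox+ replicates and by 0.13 between the WT dox+ replicates. S34F dox+ replicate 2 stood apart, with 20896 genes of any type at 1 FPKM or above against 13661 to 17716 in the other 8 libraries. Of the epithelial and lung adenocarcinoma markers, EPCAM was at 407 FPKM or above and NKX2-1 at 49.1 FPKM or above in every library, whereas the surfactant gene SFTPB reached only 2.05 FPKM. Summed levels of the 11 markers ran from 8659 to 11668 FPKM. Those of 7 fibroblast markers ran from 3.74 to 13.9 FPKM, of 7 leukocyte markers from 0.82 to 6.51 FPKM and of the 4 endothelial markers found in the table from 0.94 to 3.35 FPKM. HBA1 and HBB, markers of erythroid cells, were listed at 0 in all 9 libraries, and the erythroid sum reached 1.75 FPKM.

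Differences between the induced lines were small and went both ways. Both S34F dox+ replicates lay above both WT dox+ replicates for 1908 genes (20.3%) and below both for 1658 genes (17.7%), in all 38% of the genes. The median distance of such genes was 1.205-fold for those higher in S34F dox+ and 1.18-fold for those lower, and 89.6% and 92.3% of them were under 1.5-fold. At 1.5-fold or more between group means, 199 genes were higher (2.12%) and 128 lower (1.36%), of which 184 and 119 were outside both lists. At 2-fold or more, 40 genes were higher and 22 lower, and at 4-fold or more 6 and 2. Genes of low level were common among those 1.5-fold apart. A mean under 10 FPKM was found for 51.8% of the higher and 50.8% of the lower genes, against 20.7% of all 9392.

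The balance of the directions depended on the unit. TPM, a unit of the same table in which every library sums to 1 fixed total, lowered the median log2 difference over these genes from 0.01 to -0.10, and gave 815 of them higher (8.68%) and 3201 lower (34.1%) without overlap, with 105 and 245 past 1.5-fold. Median-ratio scaling gave 1421 and 2014, and quantile normalization 1683 and 1886. Without S34F dox+ replicate 2, where 1 library stands against 2 and non-overlap is easier, 3925 were higher and 3248 lower, with 346 and 289 past 1.5-fold. Directions of gene groups are therefore given below relative to the median of all 9392 genes.

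In limma-trend on log2(FPKM + 1), fitted over 15179 genes of any type with Benjamini-Hochberg adjustment, 2 of these genes were higher (0.0213%) and 2 lower (0.0213%) at an adjusted p under 0.05, against 0.0198% and 0.0329% of all genes in the fit. They were IL32 (in the EMT list) and GALR2, which rose, and CYP27A1 and EFHC2, which fell. At an unadjusted p under 0.05, 388 were higher (4.13%) and 303 lower (3.23%), against 4.01% and 2.77% of all genes in the fit. These calls were not stable. Over 13 other settings the adjusted p from limma ran from 5.29e-05 to 0.133 for CYP27A1, from 0.00103 to 0.307 for EFHC2, from 0.00786 to 0.541 for GALR2 and from 0.0126 to 0.267 for IL32. Leaving out any 1 of the 4 dox+ libraries ended both higher calls, and leaving out WT dox+ replicate 2 ended all 4. In simulated libraries of the same size the fit recovered 95 of 100 genes changed 2-fold and all 100 changed 4-fold. There the spread of a gene followed its level alone, without differences between genes of the same level. Only genes above a minimum level were changed. In the real libraries 40 genes were higher and 22 lower at 2-fold or more, but only 2 and 2 were called. How many changed genes the fit misses in the real libraries was not tested, so a gene without a call may still differ. Every other gene below is described by its values, and the statement that it was higher or lower means only that the 2 replicates of each group did not overlap.

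Among the genes higher in S34F dox+ outside both lists, CD96 and GALR2 were nearly silent in the wild-type and parental lines. CD96, an immunoglobulin-family receptor best known from T and NK cells, was at 19.5 and 18.9 FPKM in S34F dox+ and at 0.07 and 1.17 FPKM in WT dox+. It was at 11.7 FPKM in S34F dox-, at 0.04 and 1.17 FPKM in WT dox- and at 0.02 and 0.12 FPKM in the parental line. Only the 3 libraries of the S34F line held more than 2 FPKM (log2 fold change 3.73, standard error 0.45, adjusted p = 0.0654 from limma). PTPRC, which marks leukocytes, was at 2.71 FPKM or less in every library. The leukocyte sum ran from 0.82 FPKM in S34F dox- to 6.51 FPKM in S34F dox+ replicate 2, where PTPRC was also highest. GALR2, a G protein-coupled receptor for the peptide galanin, was at 11.8 and 12.0 FPKM in S34F dox+ and at 0.86 and 0.92 FPKM in WT dox+. It was listed at 5.75 FPKM in S34F dox- and at 0.51 FPKM or less in the 4 other libraries, so it too was high in each library of the S34F line (log2 fold change 2.77, standard error 0.30, adjusted p = 0.0431 from limma).

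Of the genes with the largest differences, DSP and KRT17 belong to cell junctions and the cytoskeleton. KRT8 and KRT18, keratins of higher level, were lower in S34F dox+ and are given below. DSP encodes desmoplakin, which ties keratin filaments to desmosomes. It was at 19.3 and 21.9 FPKM in S34F dox+, at 4.63 and 5.40 FPKM in WT dox+, at 17.2 FPKM in S34F dox- and between 2.98 and 4.93 FPKM in the other 4 libraries. All 3 libraries of the S34F line stood above the 6 others (log2 fold change 1.84, standard error 0.21, adjusted p = 0.0588 from limma). KRT17, a keratin of basal and injured epithelia, was at 87.1 and 41.05 FPKM in S34F dox+ and at 15.6 and 13.7 FPKM in WT dox+. Here S34F dox- was at 16.0 FPKM, within the 4.08 to 26.6 FPKM of the WT dox- and parental libraries, so the S34F line stood above every other library only with doxycycline (log2 fold change 1.97, standard error 0.55, adjusted p = 0.546 from limma). The related keratin KRT16, chosen after its values were seen, was at 53.1 and 37.95 FPKM against 25.9 and 19.9 FPKM, with the parental line at 36.01 and 26.3 FPKM.

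PTP4A1, a phosphatase of the PRL family, was at 48.1 and 148 FPKM in S34F dox+ and at 28.8 and 28.9 FPKM in WT dox+. Its parental libraries were at 26.9 and 46.8 FPKM, and the distance rested on S34F dox+ replicate 2, without which the log2 fold change was 0.72 in place of 1.52. PTPRG, a receptor tyrosine phosphatase, was steadier, with 13.2 and 13.9 FPKM against 5.72 and 5.04 FPKM, 8.76 FPKM in S34F dox- and 4.80 to 5.73 FPKM in the other 4 libraries. GAB1, an adaptor of receptor tyrosine kinases, was at 14.5 and 11.3 FPKM against 4.96 and 5.94 FPKM. LY96, the co-receptor of TLR4 also called MD-2, was at 12.8 and 9.33 FPKM against 3.87 and 4.82 FPKM. For GAB1 and LY96 the parental libraries, at 6.83 to 9.12 FPKM, lay between the induced lines. HSPB1, a small heat shock protein expressed at a high level, was at 321 and 300 FPKM against 194 and 187 FPKM, and no library outside S34F dox+ exceeded 194 FPKM.

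The histone genes HIST1H3C and HIST2H3A were also higher in S34F dox+, but both varied between libraries of a group. HIST1H3C was at 10.99 and 15.9 FPKM against 1.24 and 0 FPKM, and at 33.4 FPKM in S34F dox- and 4.94 and 18.2 FPKM in the parental line. HIST2H3A has a near-identical copy, so its value is uncertain. Also among the 12 largest differences were C1orf85, at 16.5 and 14.9 FPKM against 7.79 and 5.45 FPKM, and RP11-544M22.13 and AC009403.2, 2 genes known only by clone names. For C1orf85 the parental libraries, at 16.9 and 15.4 FPKM, were like S34F dox+.

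**Figure D1:**
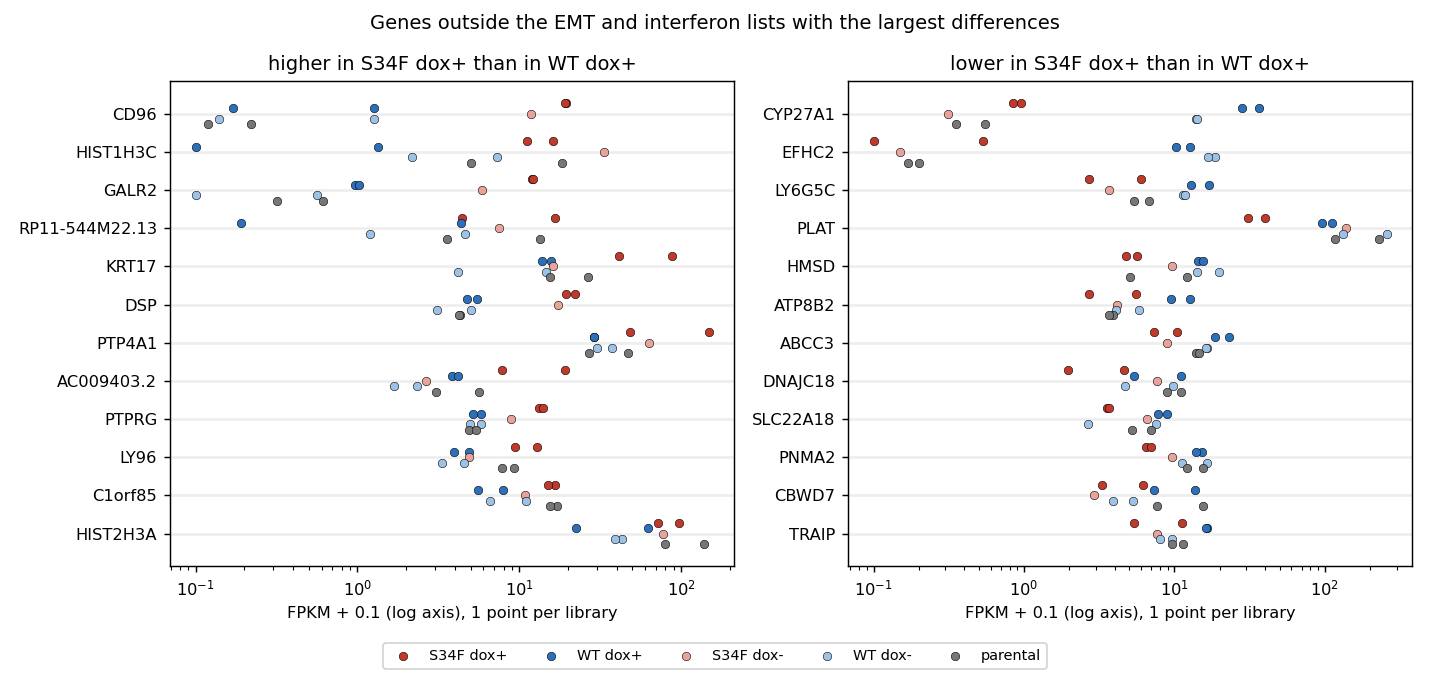
FPKM of the 12 genes with the largest limma log2 difference in each direction outside the EMT and interferon lists, 1 point per library on a log axis after adding 0.1, coloured by group. CD96 and GALR2 were high only in the 3 libraries of the S34F line, whereas KRT17 was highest in the 2 S34F dox+ libraries.

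Among the lower genes, 2 with large differences, CYP27A1 (mitochondrial sterol 27-hydroxylase of bile acid synthesis) and EFHC2 (an EF-hand protein of ciliary microtubules), were near 0 in the parental line and high in both states of the wild-type line. CYP27A1 was at 0.86 and 0.74 FPKM in S34F dox+, at 27.9 and 36.6 FPKM in WT dox+ and at 0.25 and 0.45 FPKM in the parental libraries (log2 fold change -4.20, standard error 0.21, adjusted p = 0.000606 from limma). EFHC2 was at 0 and 0.43 FPKM, at 12.6 and 10.1 FPKM and at 0.07 and 0.10 FPKM in the same order (log2 fold change -3.36, standard error 0.27, adjusted p = 0.00697 from limma). LY6G5C, of the LY6 family, was at 2.60 and 5.87 FPKM in S34F dox+, at 16.8 and 12.7 FPKM in WT dox+, at 11.3 and 11.7 FPKM in WT dox- and at 3.55 FPKM in S34F dox-. All 4 wild-type libraries lay above all 3 of the S34F line, with the parental libraries at 5.28 and 6.68 FPKM.

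PLAT, tissue plasminogen activator, had the other pattern. It was at 40.1 and 30.5 FPKM in S34F dox+, at 112 and 96.0 FPKM in WT dox+ and at 117 to 258 FPKM in the 5 other libraries. S34F dox- was at 138 FPKM, inside the range of WT dox- and the parental line, and the S34F line was low only with doxycycline (log2 fold change -1.54, standard error 0.37, adjusted p = 0.531 from limma). The growth factor gene EREG (epiregulin, a ligand of EGFR) showed the same order, at 7.61 and 8.58 FPKM in S34F dox+, at 15.4 and 18.7 FPKM in WT dox+ and at 19.9 to 30.7 FPKM in the 5 others. Both induced lines were below the 5 other libraries for EREG and for PLAT, the mutant line further.

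ABCC3, an export pump of bile salts and drug conjugates, was at 7.16 and 10.3 FPKM against 23.03 and 18.6 FPKM, with 13.9 and 14.5 FPKM in the parental line. PNMA2, a neuronal antigen, was at 6.37 and 6.83 FPKM against 15.2 and 13.8 FPKM. The co-chaperone gene DNAJC18 and the transporter gene SLC22A18 were also lower, SLC22A18 at 3.46 and 3.56 FPKM against 8.80 and 7.62 FPKM. ATP8B2, a phospholipid flippase, was at 2.62 and 5.48 FPKM against 9.41 and 12.6 FPKM, and TRAIP, a ubiquitin ligase of the replication machinery, was at 5.31 and 11.04 FPKM against 16.3 and 16.2 FPKM. For ATP8B2 and TRAIP the 5 other libraries, at 3.59 to 11.2 FPKM, were like S34F dox+, so the WT dox+ libraries were those apart. HMSD and CBWD7, the last of the 12, varied more, and CBWD7 has near-identical copies, so its value is uncertain.

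Against the parental line, genes past 1.5-fold were placed in every way. Of the 199 higher genes, 64 had only S34F dox+ beyond both parental libraries, 40 only WT dox+, 79 both groups and 16 neither. Of the 128 lower genes the counts were 42, 35, 39 and 12. Over all 9392 genes the shares were 16.0% for S34F dox+ alone, 19.7% for WT dox+ alone, 29.3% for both and 35.0% for neither.

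Promoters were searched for the letters TATAAA. Sequences from 250 bases before to 50 after the gene start (RefSeq, GRCh38.p14) were found for 7710 of the 9392 genes, 141 of the 199 higher and 97 of the 128 lower. Both strands were searched. The motif was in 15 of 141 promoters of the higher genes (10.6%, exact 95% interval 6.08 to 16.9%), in 12 of 97 of the lower genes (12.4%, 6.56 to 20.6%) and in 5.30% of the 7710, where it was in 12.0% of all 27305 promoters of the table. On the gene's strand, with its first base 20 to 40 bases before the start, where a TATA box lies, it was in 7 higher (4.96%) and 5 lower genes (5.15%) and in 1.56% of the 7710. On either strand, the share was 5.77% in all genes under 10 FPKM. Of these, 10 of 71 higher ones past 1.5-fold (14.1%, 6.97 to 24.4%) and 2 of 49 lower ones (4.08%, 0.498 to 14.0%) had the motif. The interval of the higher ones lies above 5.77% and that of the lower ones holds it. The 2 intervals overlap, which does not decide whether the directions differ, and no test compared them. In the place of a TATA box on the gene's strand, 4 of the 71 and 0 of the 49 had the motif, against 1.38% of genes under 10 FPKM. On either strand, the share was 5.53% in non-overlapping genes under 1.5-fold. The AP-1 motif TGANTCA was in 10 of 141 promoters (7.09%) and in 2 of 97 (2.06%), against 4.15% of the 7710, and the intervals of both, 3.45 to 12.7% and 0.251 to 7.25%, held that share. A match is a description of the letters and not of binding. The windows of 6 of these 12 genes are shown, on the gene's strand, with TATAAA in capitals, because they give the motif in its place in genes of each direction: PTP4A1, the immediate early phosphatase DUSP1, the prostaglandin synthase PTGS2 and the histone HIST2H3A (higher), and EREG and GCLC, the catalytic subunit of glutamate-cysteine ligase (lower).
PTP4A1, chr6:63572440-63572465, plus strand: tcgcgccggcTATAAAggggagggct
DUSP1, chr5:172771210-172771235, minus strand: agaggccgcaTATAAAcgcgctcccc
PTGS2, chr1:186680440-186680465, minus strand: ttttcagtctTATAAAaaggaaggtt
HIST2H3A, chr1:149852566-149852591, plus strand: agactgtgctTATAAAgacggctgcg
EREG, chr4:74365103-74365128, plus strand: ggctccctagTATAAAgttcgcagca
GCLC, chr6:53545115-53545140, minus strand: gcccgtagtcTATAAAacctggagcg

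Of the genes shown, DUSP1 was at 10.4 and 10.0 FPKM in S34F dox+ and at 6.18 and 7.29 FPKM in WT dox+, but the 5 other libraries ran from 4.44 to 14.2 FPKM, so it varied more among those libraries than between the induced lines. PTGS2 was at 11.6 and 4.75 FPKM against 4.54 and 4.09 FPKM, where S34F dox+ replicate 1 made the difference. GCLC was at 9.83 and 13.1 FPKM against 21.8 and 14.8 FPKM. PTGS2 was chosen after its values were seen. HIST2H3A was at 96.4 and 72.3 FPKM against 62.0 and 22.4 FPKM, with the parental line at 79.7 and 138 FPKM.

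Gene lists other than EMT and interferon are given by how many of their measured genes did not overlap, beside 20.3% higher and 17.7% lower for all 9392, and by the median log2 difference minus that of all genes. Counts under TPM stand against 8.68% higher and 34.1% lower of all genes, and counts without doxycycline against 32.4% with S34F dox- above and 29% with it below both WT dox- libraries. Lists that leaned to lower values in S34F dox+ included those of cell division, RNA-binding splicing regulators, TGF-beta and YAP signalling outside the EMT list, and cilia. In these bulk samples fewer cells in a state and less RNA per cell cannot be told apart.

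Of 44 genes of G2/M and mitosis, 20 were lower and 2 higher in S34F dox+, with a median of -0.14. The differences were small. CENPA, the centromeric histone, was at 14.9 and 18.2 FPKM against 21.7 and 22.7 FPKM. CDC25C, a phosphatase that drives entry into mitosis, was at 11.03 and 11.7 FPKM against 14.4 and 14.5 FPKM. The checkpoint kinase BUB1B was at 107 and 118 FPKM against 133 and 141 FPKM, 1.21-fold. None passed 1.5-fold. The lean held under TPM (33 lower, 0 higher) and median-ratio scaling (22 and 0), and without each library the median stayed between -0.17 and -0.09. Without doxycycline the S34F library was above both WT dox- libraries for 14 of the 44, about the share of all genes. It was below both for only 3, against 29% of all genes, so the lean to lower values was not seen there.

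DNA replication and G1/S genes leaned the same way, with 15 of 38 lower, 1 higher and a median of -0.12. MCM10, a replication initiation factor, was at 23.4 and 15.1 FPKM against 27.9 and 30.2 FPKM. POLA1, the catalytic subunit of DNA polymerase alpha, was at 10.7 and 10.3 FPKM against 15.3 and 16.99 FPKM. CCND1, cyclin D1, was at 60.8 and 62.4 FPKM against 84.1 and 88.8 FPKM, and at 87.4 to 136 FPKM in the 5 other libraries, so S34F dox+ was the lowest pair. The single higher gene was CCNE1, cyclin E1, which was named after its value was seen (log2 fold change 0.26). Under TPM 21 were lower and 0 higher. Without doxycycline 12 of the 38 were above and 9 below. Replication-dependent histones had 17 of 58 lower and 8 higher, and HIST1H2BM, at 44.35 and 54.5 FPKM against 70.4 and 107 FPKM, was past 1.5-fold.

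Of 46 SR proteins, hnRNPs and related splicing regulators, 18 were lower and 1 was higher, with a median of -0.07. SRSF9, an SR protein, was at 82.6 and 78.4 FPKM against 106 and 89.8 FPKM, and MBNL1, a muscleblind splicing regulator, at 118 and 133 FPKM against 145 and 155 FPKM. The higher gene was CELF1, at 49.8 and 61.5 FPKM against 46.0 and 45.2 FPKM. None passed 1.5-fold. Under TPM 32 were lower and 0 higher, and without doxycycline 11 were above and 13 below. Of 28 proteins of 3 prime splice site recognition, 9 were lower and 4 higher. Besides U2AF1 itself, its partner U2AF2, the larger subunit that binds the polypyrimidine tract, was at 96.0 and 111 FPKM against 134 and 134 FPKM. ZRSR2, the paralogue that serves minor introns, was at 11.6 and 16.2 FPKM against 9.84 and 10.3 FPKM. Nonsense-mediated decay and exon junction genes were even, with 4 of 23 in each direction, among them MAGOH, an exon junction core protein, at 52.7 and 48.0 FPKM against 73.1 and 65.5 FPKM.

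Of 24 TGF-beta, BMP and YAP genes, 11 were lower and 2 higher, with a median of -0.15. ANKRD1, a target of YAP, was at 17.5 and 17.1 FPKM in S34F dox+, at 31.7 and 37.6 FPKM in WT dox+ and at 21.4 to 68.8 FPKM in the other libraries, so S34F dox+ was below all 7. ID1, a target of BMP signalling, was at 42.98 and 58.6 FPKM against 67.3 and 76.3 FPKM, and LTBP3, which binds latent TGF-beta, at 29.4 and 43.5 FPKM against 54.99 and 47.1 FPKM. TGFB2, AXL, SMAD3 and TGFBR2, named after their values were seen, were lower too, with log2 fold changes of -0.46, -0.37, -0.20 and -0.16. Further targets of these pathways stood in the EMT list, where CYR61, THBS1, TAGLN and TNC, also named after their values were seen, were higher, with log2 fold changes of 0.48, 0.28, 1.31 and 1.34. Under TPM 14 were lower and 0 higher. Of 14 genes of MAPK output and feedback, 6 were lower and 2 higher, and 3 of the lower ones were past 1.5-fold. They were EREG, described earlier, PHLDA1, at 5.91 and 6.97 FPKM against 11.3 and 11.5 FPKM, and the ETS factor ETV5, at 5.54 and 3.96 FPKM against 7.27 and 9.46 FPKM. The median of that list was close to that of all genes, at -0.03.

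Of 34 genes of the primary cilium and its dynein, 12 were lower and 2 higher, with a median of -0.10. Under TPM 14 were lower, near the share of all genes, and 2 higher. Besides EFHC2, IFT27 of the intraflagellar transport train was at 5.46 and 11.8 FPKM against 16.6 and 14.3 FPKM, and TTC8, a BBSome subunit, at 11.6 and 8.63 FPKM against 13.4 and 21.7 FPKM. For IFT27 the 5 other libraries ran from 10.6 to 13.2 FPKM, below WT dox+.

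Lists that leaned to higher values included those of epithelial junctions, lysosomes, G protein-coupled receptors, and NF-kB and cytokine genes. Their counts are given under both units. Immediate early genes leaned by count under FPKM, but their median was only 0.02 above that of all genes. Of 42 genes of epithelial junctions and keratins, 22 were higher and 6 lower, with a median of 0.08 (under TPM 9 and 10, under median-ratio scaling 14 and 5). The median was 0.08 to 0.11 with each library left out. Besides DSP and KRT17, P-cadherin (CDH3) was at 116 and 120 FPKM against 85.03 and 81.4 FPKM, and the next highest library was at 105 FPKM. The desmosomal cadherins DSC2 and DSG2, the tight junction genes OCLN and CLDN1 and the polarity gene CRB3 were also higher, DSC2 at 30.97 and 28.4 FPKM against 22 and 21.1 FPKM, and OCLN at 277 and 248 FPKM against 201 and 204 FPKM. KRT18 and KRT8 of the same list were lower, KRT18 at 1160 and 1046 FPKM against 1458 and 1359 FPKM and KRT8 at 1886 and 1569 FPKM against 2127 and 1929 FPKM. The desmosomal, polarity and tight junction genes, KRT8 and KRT18 were named after their values were seen. Without doxycycline 14 of 42 were above and 12 below, near the shares of all genes.

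Of 41 lysosome and autophagy genes, 12 were higher and 3 lower (under TPM 7 and 9), with a median of 0.12 that rested on S34F dox+ replicate 1, without which it was -0.02. ATP6V0A1, a subunit of the proton pump, was at 40.8 and 43.3 FPKM in S34F dox+, at 26.3 and 23.6 FPKM in WT dox+ and at 13.6 to 23.9 FPKM in the rest, so S34F dox+ was above all 7. SMPD1, acid sphingomyelinase, was at 9.36 and 7.62 FPKM against 5.95 and 6.13 FPKM, and GABARAPL1, of the ATG8 family, at 6.46 and 6.20 FPKM against 4.60 and 3.98 FPKM. S34F dox- lay above both WT dox- libraries for 17 of the 41 genes and below both for 8. Of 47 nuclear genes of the respiratory chain, 13 were higher and 3 lower under FPKM, but 3 and 16 under TPM, with a median only 0.03 above that of all genes. NDUFS7 and NDUFS8 of complex I were at 57.2 and 65.6 FPKM against 48.4 and 49.8 FPKM and at 114 and 113 FPKM against 94.7 and 98.3 FPKM. S34F dox- lay above both WT dox- libraries for 25 of the 47, against 32.4% of all genes, and below both for 3, against 29%. The 13 mitochondrially encoded genes all overlapped between the groups.

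Of 19 G protein-coupled receptors and regulators, 8 were higher, 5 of them past 1.5-fold, and 2 were lower, with 7 and 4 under TPM. Past GALR2, CELSR1, an adhesion receptor of planar polarity, was at 8.34 and 9.43 FPKM against 5.13 and 4.08 FPKM, and RGS19, which turns off G proteins, at 5.12 and 9.89 FPKM against 3.78 and 4.06 FPKM. Without doxycycline 3 were above and 11 below. Of 22 NF-kB and cytokine genes, 9 were higher and 5 lower (3 and 6 under TPM). The inhibitor gene NFKBIE was at 19.1 and 18.2 FPKM against 10.2 and 14.4 FPKM, and the acute-phase genes C3 and SAA2 were lower, C3 at 11.4 and 12.8 FPKM against 21.1 and 22.3 FPKM and SAA2 at 4.27 and 5.11 FPKM against 9.45 and 9.36 FPKM. For C3 the other 5 libraries ran from 2.75 to 13.4 FPKM, so WT dox+ was the pair that stood apart. Of 17 immediate early and AP-1 genes, 7 were higher and 1 lower (3 and 5 under TPM), such as IER3, at 27.5 and 21.98 FPKM against 17.8 and 16.5 FPKM, but at 22.99 to 51.8 FPKM in the 5 other libraries.

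ATF4 and amino acid response genes had 9 of 27 higher and 2 lower under FPKM, 1 and 7 under TPM, and a median of -0.01, so their balance followed the unit. Integrins, laminins and other matrix genes were even, with 6 of 22 each way, and the laminin receptor subunit ITGA6 was at 5.88 and 9.14 FPKM against 12.2 and 15.1 FPKM, below all other libraries. Antioxidant genes under NRF2 were split, 5 of 20 higher and 6 lower. The ferritin light chain gene FTL was at 613 and 525 FPKM against 393 and 385 FPKM, while both subunits of glutamate-cysteine ligase were lower, GCLC as above and GCLM at 10.6 and 9.48 FPKM against 14.4 and 13.7 FPKM.

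The remaining lists had a smaller imbalance or few genes. Cholesterol synthesis had 3 of 25 higher and 1 lower, fatty acid and triglyceride metabolism 6 and 2 of 29, the unfolded protein response 4 and 5 of 25, heat shock chaperones 3 and 6 of 21, and glycolysis and hypoxia 5 and 6 of 30. Cytosolic ribosomal proteins had 11 of 76 higher and 8 lower under FPKM but 1 and 57 under TPM, with a median of -0.02. Receptor tyrosine kinases and adaptors had 6 of 22 each way, Wnt and Notch 4 of 16 each way, p53 targets 6 and 3 of 17, proteases and inhibitors 7 and 4 of 27, metal handling 3 and 5 of 18, the proteasome 4 and 7 of 34, lung lineage 2 and 2 of 15, and bile acid and xenobiotic metabolism 1 and 2 of 10. Among their members, the p53 target PHLDA3 was at 27.5 and 22.02 FPKM against 14.7 and 15.1 FPKM, with 12.8 to 15.7 FPKM in the other 5 libraries, so only S34F dox+ was high. DKK3, of the dickkopf family, was at 8.46 and 8.32 FPKM against 3.86 and 6.09 FPKM. HMGCS1 of cholesterol synthesis was at 84.7 and 79.2 FPKM against 124 and 109 FPKM.

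**Figure D2:**
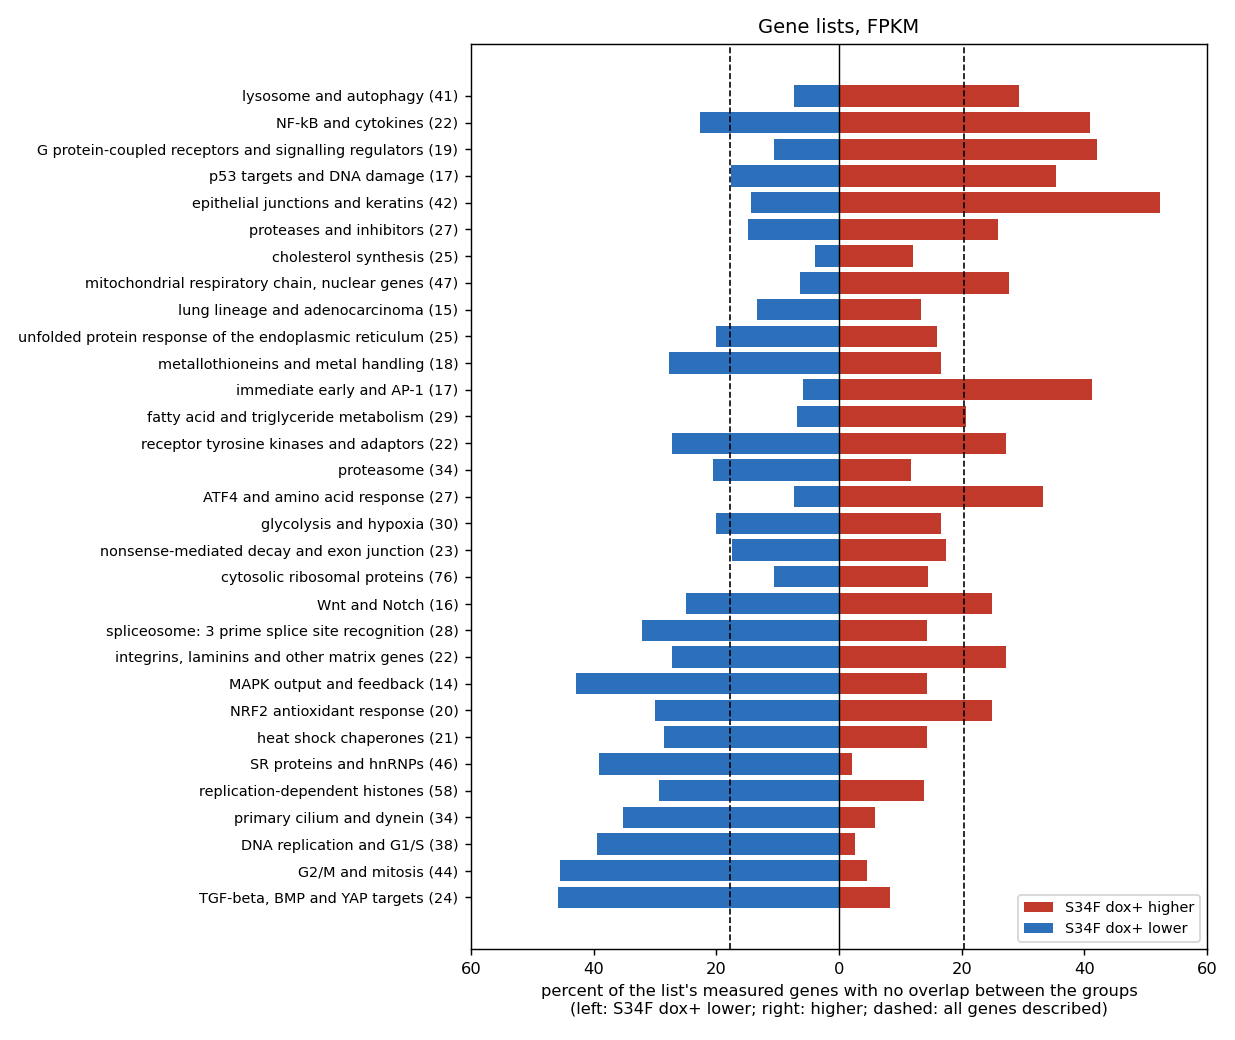
Percent of each gene list's measured genes (number in parentheses, described lists of 14 or more) for which the 2 S34F dox+ replicates lay above (right) or below (left) both WT dox+ replicates, in FPKM, ordered by the median log2 difference, with dashed lines at the shares of all 9392 genes. Mitosis, replication and TGF-beta lists extend to the left and epithelial junctions furthest to the right. Under TPM all genes shifted to the left, with 8.68% higher and 34.1% lower, and the epithelial list had 9 higher and 10 lower.

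Libraries without doxycycline, which the comparison above did not use, show how far the same genes already differed between the lines. S34F dox- lay above both WT dox- libraries for 98 of the 199 genes 1.5-fold higher under doxycycline (49.2%), against 32.4% of all 9392, and below both for 64 of the 128 lower genes (50.0%), against 29% of all. The order was opposite for 51 and 25. At 1.5-fold or more in the same direction were 35 of the 199 (17.6%, against 1.64% of all). Of the 128, 24 were so (18.8%, against 2.26%). In the opposite direction there were 8 and 4, where 2.26% and 1.64% of all genes lay that way. The shares of all genes were not matched for level. A mean under 10 FPKM was found for 51.8% of the 199 and 50.8% of the 128, against 20.7% of all. Over all non-overlapping genes the shares in the same order were 39.2% of the higher and 37.2% of the lower. These shares moved with the scale together with those of all genes: under TPM 47.6% of the higher against 39.01% of all, and 26.7% of the lower against 23.7% of all. S34F dox- is 1 library, so these counts have no replicate check on that side.

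Genes with the largest differences often differed in the same direction without doxycycline, but not all did. The log2 difference of S34F dox- from WT dox- was 3.08 for CD96, 2.48 for GALR2, 1.91 for DSP, -1.45 for LY6G5C, -3.62 for CYP27A1 and -4.15 for EFHC2. It was nearer to 0 for others, at -0.42 for PLAT, 0.16 for EREG, -0.12 for ANKRD1, 0.15 for HSPB1, 0.05 for PHLDA3 and -0.14 for TLE4. TLE4, a Groucho-family corepressor named after its values were seen, was at 15.8 and 14.5 FPKM in S34F dox+ against 7.50 and 5.92 FPKM in WT dox+ and 6.27 FPKM in S34F dox-. The median over the 199 genes was 0.16 without doxycycline and 0.66 with it, and over the 128 genes -0.13 and -0.71.

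**Figure D3:**
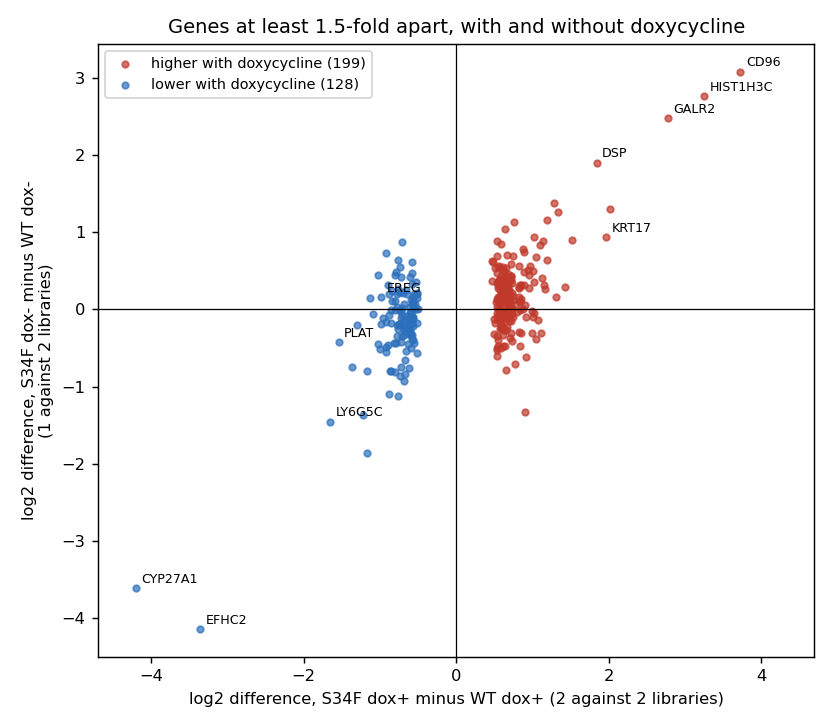
Log2 difference between the S34F and wild-type lines with doxycycline (x axis, 2 against 2 libraries) and without it (y axis, 1 against 2 libraries) for the 199 higher and 128 lower genes at least 1.5-fold apart with doxycycline. CD96, GALR2, DSP, CYP27A1 and EFHC2 were also apart without it, and EREG lies near 0 on the y axis.

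Position in the genome went with the direction of the difference. Of the 9392 genes, 8734 could be placed on a chromosome from the splicing tables (hg19), and of these 20.2% were higher and 17.6% lower. On chromosome 15, 21 of 301 genes were higher (6.98%) and 110 lower (36.5%). On chromosome 2, 52 of 594 were higher (8.75%) and 196 lower (33.0%). Chromosome 1 leaned the other way, with 278 of 915 higher (30.4%) and 92 lower (10.1%), and so did chromosomes 8 (29.3% and 11.7%), 18 (31.7% and 13.4%) and 19 (27.7% and 10.1%). The median of chromosome 19, 0.07 above that of all placed genes, rested on S34F dox+ replicate 2 and was 0.005 without it. The lean was spread over many genes. Only 26.6% of the genes on chromosome 15 lay above the median difference of all placed genes.

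In windows of 25 Mb with at least 20 genes, the lean had borders inside chromosomes. On chromosome 1 the 5 windows from 125 Mb to the end had 37.5% to 60% of genes higher, whereas the 5 before it had 15.6% to 25.4%. Together the second part of chromosome 1 had 177 of 406 genes higher (43.6%) and 26 lower (6.404%). On chromosome 8 the first 50 Mb had 55 of 114 higher (48.2%) and 10 lower (8.77%), and the rest 18.1% and 13.5%. All 10 windows of chromosome 2 had a median below that of all genes, from -0.15 to -0.06, and the 3 of chromosome 15 ran from -0.17 to -0.14. These 4 stretches were chosen after the windows were seen, hold 16.2% of the placed genes and carry no test.

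The medians of the 4 stretches were small against the spread of single genes. Relative to all placed genes, the median log2 difference was 0.11 for the second part of chromosome 1, with a range of 0.10 to 0.12 when each library was left out, and 0.15 for the first part of chromosome 8, with 0.14 to 0.16. It was -0.10 for chromosome 2, with -0.14 to -0.08, and -0.15 for chromosome 15, with -0.16 to -0.13. TPM and median-ratio scaling moved none of the 4 by more than 0.01. Without doxycycline the same lines differed by 0.06, 0.06, -0.11 and -0.07 in the same order. On chromosome 2 S34F dox- was below both WT dox- libraries for 50.8% of genes and above both for 13.3%, against 29.1% and 32.8% of all placed genes. The first 25 Mb of chromosome 8, with 26 of 45 genes higher and 1 lower, had a median of 0.23 with doxycycline and -0.01 without it.

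Set against the parental mean, the libraries of 1 line kept together. For the second part of chromosome 1, the 4 wild-type libraries were at -0.11, -0.09, -0.06 and -0.07 and the 3 of the S34F line at 0.02, 0.01 and -0.02. For chromosome 2, the S34F line was at -0.05, -0.10 and -0.10 and the wild-type libraries at 0.02, 0.02, 0.02 and -0.01. For chromosome 15 the S34F line was at -0.05, -0.07 and -0.03 and the wild-type line at 0.09, 0.08, 0.04 and 0.06. In each of these the 2 lines did not overlap, and for chromosome 1 the wild-type line and for chromosome 2 the S34F line was the one away from the parental libraries, which both share as the base of these values. The cause of the lean was not tested. NEO1 on chromosome 15, which encodes the receptor neogenin and was chosen after its values were seen, was at 10.95 and 11.29 FPKM in S34F dox+ against 21.4 and 22.6 FPKM in WT dox+, 1.98-fold, far beyond the median of its chromosome.

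Of the 7275 genes not placed on chromosomes 1, 2, 8 and 15, 20.2% were higher and 16.8% lower. Of the lists there, mitosis had 14 of 30 lower and 1 higher, DNA replication 12 of 32 and 1, SR proteins and hnRNPs 16 of 35 and 1, TGF-beta, BMP and YAP 8 of 17 and 2, and cilia 10 of 29 and 2. Epithelial junctions had 20 of 33 higher and 4 lower, and lysosomes 8 of 34 and 3.

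**Figure D4:**
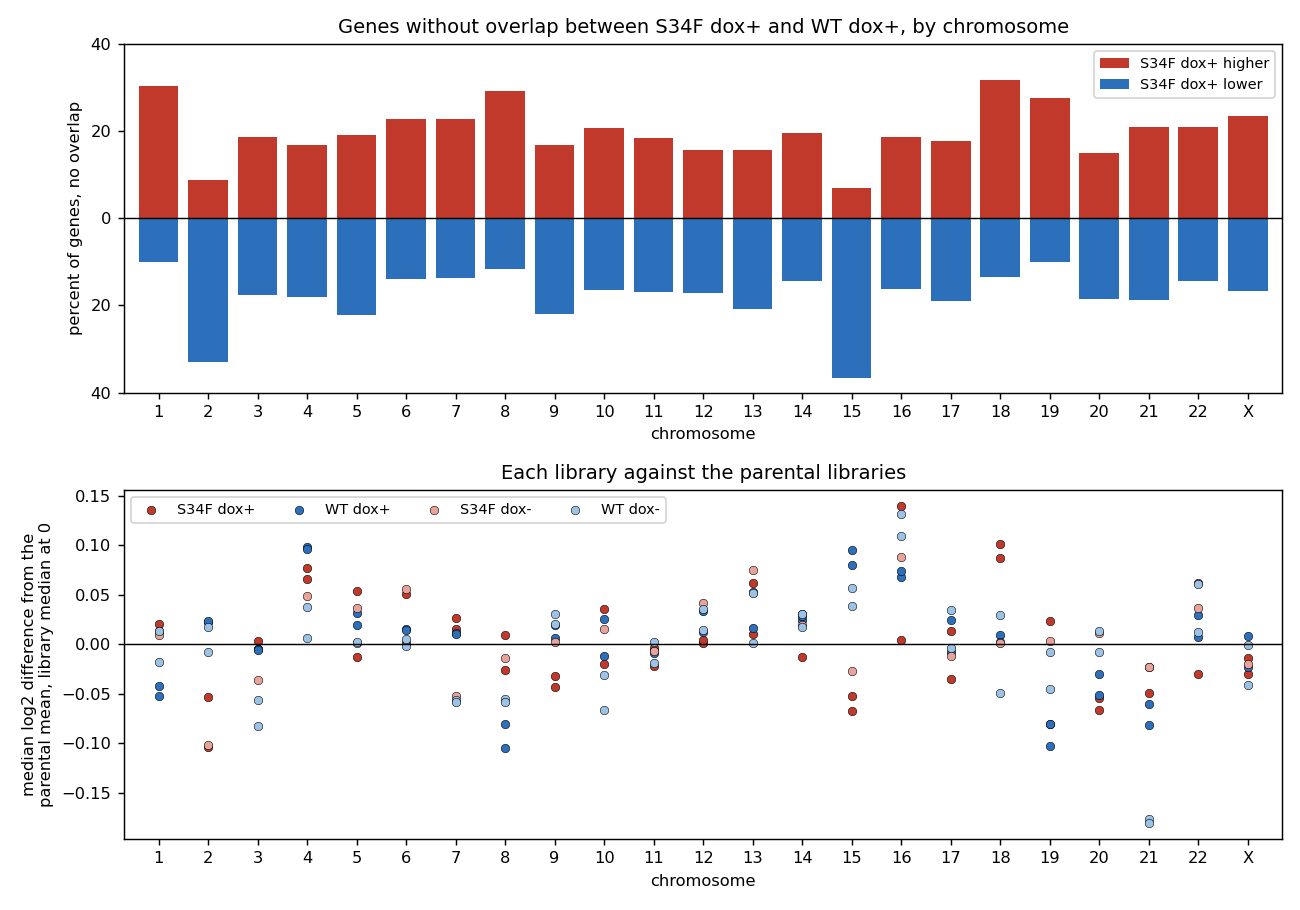
Top: percent of the placed genes of each chromosome for which S34F dox+ lay above (up) or below (down) WT dox+ without overlap. Bottom: for each library and chromosome, the median log2 difference from the parental mean, with the median of the library over all placed genes set to 0. Chromosomes 2 and 15 have 33.0% and 36.5% of genes lower, and there the points of the S34F line lie below those of the wild-type line.

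Splicing was read from the authors' comparison of cells overexpressing the mutant with cells overexpressing the wild-type form, which gives PSI (percent spliced in, as a fraction of inclusion) for events of 5 kinds, with a Bayes factor and without replicates. The first side was read as S34F from the order of names. For 50 of 57 genes past 2-fold with an event, the reads of the 2 sides, relative to the median gene, went the same way as FPKM. An event was counted as changed at a PSI difference of 0.10, a Bayes factor of 5 and 10 reads over both sides. Of 65454 events in these genes, 929 were changed.

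Genes that differed in level did not have changed splicing more often. A changed event was found in 284 of 3302 non-overlapping genes with an event (8.60%, exact 95% interval 7.67 to 9.61%) and in 530 of 5432 overlapping genes (9.76%, 8.98 to 10.6%). Among genes past 1.5-fold it was in 22 of 185 higher (11.9%, 7.60 to 17.4%) and 6 of 118 lower genes (5.08%, 1.89 to 10.7%). The intervals cover counting error only. By the authors' Bayes factor, the strongest events in non-overlapping genes were in DDX47, RPLP1, TVP23C, WDYHV1 and RBM47. DDX47, a DEAD-box helicase of ribosome biogenesis, had 3 retained-intron events on chromosome 12, chr12:12976253-12976804, chr12:12976253-12977474 and chr12:12976950-12977474 in hg19. Their PSI was 0.87, 0.90 and 0.96 in S34F and 0.48, 0.44 and 0.52 in wild type, and DDX47 was at 68.8 and 62.7 FPKM against 73.7 and 75.1 FPKM. A skipped exon of the ribosomal stalk gene RPLP1, chr15:69745359-69747509, had a PSI of 0.90 against 0.74, with 5191 and 9126 reads. That gene was at 1511 and 1340 FPKM against 1672 and 1671 FPKM. RBM47, an RNA-binding protein, had a skipped-exon PSI of 0.66 against 0.50 in chr4:40434879-40439788, with 6369 and 9809 reads, and a log2 fold change of -0.08. In TVP23C the skipped-exon PSI was 0.89 against 0.13, and in WDYHV1 an alternative 5 prime splice site was at 0.91 against 0.13 with only 12 and 43 reads. WDYHV1, at 12.4 and 8.45 FPKM against 21.04 and 14.97 FPKM, was the only one of these 5 past 1.5-fold.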

How the data were processed

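RNA-seq of 9 HCC78-derived libraries was used. The 2 iCLIP samples, which the comparison does not need, were not used here. Per the labels, the authors prepared stranded total RNA libraries. They trimmed reads from 150 to 100 bases, aligned them with STAR 2.3.0 to hg19 (GRCh37) and computed FPKM and TPM per gene with RSEM 1.2.29, as deposited. No reads per gene were used here, so tests for counts could not be run, the absolute depth is unknown and no counting interval is given for a level. The authors also deposited MISO tables with PSI as a fraction, Bayes factors as a ratio of evidence, and counts of supporting reads per event. MISO's version is not given in the sources used here.

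Genes were kept if they averaged 5 FPKM or more in the 4 induced libraries. log2(FPKM + 1) was fitted for the 15179 genes that averaged 1 FPKM or more in the 9 libraries, with limma 3.58.1 (R 4.3.3, trend) in a single fit of 5 groups, with two-sided tests and Benjamini-Hochberg adjustment. A fold change on this scale understates the change of low genes. Tested on simulated data for this comparison over 15179 genes, the fit found 195 of the 200 altered genes and made 7 wrong calls. The simulated spread depended on the level of a gene alone, and whether these rates hold for the real libraries was not tested. Tables were made with pandas 2.3.3. Fold is the ratio of group means. Events with several isoforms were read by the isoform with the largest Bayes factor.

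The genes and lists were chosen with earlier results of these data known. Genes of the EMT (205) and interferon (94) lists were taken out of the other 34, of which 1 is not reported here. The genes named are those with an adjusted p under 0.05, the 12 with the largest limma log2 difference in each direction without overlap outside both lists, up to 3 such genes per list, U2AF1, cell type markers, the genes nearest the minimum and the 5 with the largest Bayes factor. A few more are named as chosen after their values were seen. Alternatives covered the unit, scaling, pseudocount, minimum, libraries, genes in the fit, a replicate block and each dox+ library left out. Chosen after seeing the data were the chromosome comparison with its scaling and left-out libraries, the lists without 4 chromosomes, and the shares of all genes without doxycycline under other scalings.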

Additional observations from a re-analysis of the deposited data

Results flagged for a closer look

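For 12 genes at least 1.5-fold apart under doxycycline, the S34F dox- library lay on the opposite side of both WT dox- libraries, at least 1.5-fold from their mean. They were 8 of the 199 higher genes, where 2.26% of all 9392 lay as far below WT dox-. The other 4 were of the 128 lower genes, where 1.64% of all lay as far above. The difference between the 2 contrasts was not tested, and 1 of the 4 groups is a single library. Of the 8 genes higher with doxycycline, the log2 difference without it was -1.33 for AC009065.1, -0.78 for LRTOMT, -0.71 for CTAGE8, -0.62 for CMTM1, -0.61 for ZNF708, -0.50 for ERCC6, -0.48 for MTM1 and -0.47 for SMIM4. Of the 4 lower with it, the difference was 0.87 for ETV5, 0.73 for MRPL30, 0.64 for TMEM138 and 0.61 for SLC10A7. CMTM1, a chemokine-like membrane protein, was at 8 and 7.71 FPKM in S34F dox+, 3.33 and 4.11 FPKM in WT dox+, 2.24 FPKM in S34F dox- and 4.13 and 3.83 FPKM in WT dox-. ETV5 was at 13.8 FPKM in S34F dox- and at 6.05 and 15.6 FPKM in the 2 parental libraries, so it varied as widely within the parental line.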

How the results depend on the processing

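The log2 fold change of the 119 genes named by rule kept its sign under 13 alternatives each. Genes chosen after their values were seen were not run. Genes without overlap numbered 1908 higher and 1658 lower, and 775 and 3137 under TPM with the minimum also on TPM. Past 1.5-fold, 199 and 128 became 94 and 230 under TPM, 590 and 295 at a minimum of 1 FPKM and 96 and 63 at 10 FPKM. With each dox+ library left out, which leaves 1 against 2, they ranged from 2974 to 3925 and 2486 to 3533 without overlap, and from 328 to 393 and 147 to 289 past 1.5-fold. Calls by limma, 2 higher and 2 lower, became 0 and 1 with a pseudocount of 0.1 or no minimum FPKM, and 0 and 0 with the 4 dox+ libraries alone. The higher calls became 0 under TPM, 1 under median-ratio scaling, 4 under quantile normalization and 4 with protein-coding genes only. With a library left out they were 0 to 0 higher and 0 to 4 lower. With the replicate block 0 were higher and 2 lower. Differences between replicates 1 and 2 correlated at -0.00093 for the 2 dox+ groups. For other pairs of groups this ran from -0.066 (WT dox+ with WT dox-) to 0.14 (WT dox- with parental). Whether the replicate numbers pair the samples cannot be told from these values. Shares in the same order without doxycycline, 39.2% and 37.2%, became 48.5% and 26.4% under TPM with its own minimum, 47.0% and 28.8% under median-ratio scaling, and 49.2% and 50.0% past 1.5-fold. At a Bayes factor of 20, 3.45% of non-overlapping genes had a changed event. The cause of these moves was not tested. Fewer libraries make non-overlap easier, because the condition then covers fewer values. Depth, unknown in reads, limits the genes under 10 FPKM most.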
